A study of Homo sapiens with 14 samples.

Results

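FLI1-bound promoters with H3K27ac are stretches at the starts of protein-coding genes where a FLI1 antibody and an antibody against acetylated lysine 27 of histone H3 (H3K27ac) both gave a CUT&RUN region in TC-32 cells. They were chosen from the FLI1 list of set A replicate 1 on chromosomes 1 to 22 and X. A region had to overlap a region in each of the other 3 FLI1 lists, to have its summit within 1 kb of a protein-coding transcript start (GENCODE release 44, hg38), and to share at least 1 bp with a region of either H3K27ac list. Of 35210 regions in the starting list, 16804 were in all 4 FLI1 lists, 6655 of those lay at a start, and 2282 also met H3K27ac. The members were thus 6.48% of the list and 34.3% of the FLI1-bound promoters. The other 4373 bound promoters, which passed the same FLI1 and start criteria without H3K27ac, served as the comparison group.

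TC-32 is an established Ewing sarcoma cell line. The study profiled untreated cells, labelled WT, by CUT&RUN, in which an antibody tethers a nuclease that releases the DNA beneath it. Each of the 14 libraries is labelled with the letter A or B, here called its set, and with replicate 1 or 2, and what the letters mean is not given in the labels. Set A holds FLI1, H3K27ac and IgG, and set B holds FLI1, the repressive marks H3K9me3 and H3K27me3, and IgG. All libraries come from the same line with no treatment or knockdown, nothing in the labels says that the replicates came from separate cultures, and no expression was measured.

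Ewing sarcoma cells carry a fusion of the RNA-binding protein EWSR1 with FLI1, a transcription factor of the ETS family. ETS proteins read a GGAA core. The fusion is known for opening distal runs of GGAA repeats into enhancers, whereas single ETS sites are common in promoters of housekeeping genes, which other ETS factors also use. H3K27ac marks active promoters and enhancers, H3K27me3 is laid down by Polycomb, and H3K9me3 marks heterochromatin. The FLI1 antibody does not tell the fusion from unfused FLI1, if any is present.

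The 6 members below are picked examples and not a typical sample. Their sequences are in hg38, on the strand of the gene, with every GGAA or its complement TTCC in capitals. PPIL1, a spliceosomal peptidyl-prolyl isomerase, and SH3BP5L had the highest mean FLI1 rank of all members, and NVL, an ATPase of ribosome assembly, was among the highest in H3K27ac. KIFC3 (a kinesin), NCKAP5 and FEZF1 (a zinc-finger transcription factor) held long GGAA runs near the FLI1 summit. Only 5 members (0.219%) had a run of 4 or more units within 250 bp of it. None of the 6 stretches touched an annotated exon. Those of PPIL1, SH3BP5L and NVL lie upstream of the start, that of PPIL1 also within an intron of C6orf89 on the other strand, and those of KIFC3, NCKAP5 and FEZF1 within introns of these genes.

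PPIL1, chr6:36874804-36875099, minus strand: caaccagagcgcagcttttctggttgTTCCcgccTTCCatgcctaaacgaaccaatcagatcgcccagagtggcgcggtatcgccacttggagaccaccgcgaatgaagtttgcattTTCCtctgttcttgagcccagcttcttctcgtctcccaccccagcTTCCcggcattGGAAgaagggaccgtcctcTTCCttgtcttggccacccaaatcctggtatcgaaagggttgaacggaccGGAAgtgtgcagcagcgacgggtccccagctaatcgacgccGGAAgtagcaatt
SH3BP5L, chr1:248825952-248826251, minus strand: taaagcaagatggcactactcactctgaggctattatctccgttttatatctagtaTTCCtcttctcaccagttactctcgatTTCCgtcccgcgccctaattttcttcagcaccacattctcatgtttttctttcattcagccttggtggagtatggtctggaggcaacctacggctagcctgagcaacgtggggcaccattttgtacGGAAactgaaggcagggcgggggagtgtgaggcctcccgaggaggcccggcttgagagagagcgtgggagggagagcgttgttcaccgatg
NVL, chr1:224330190-224330469, minus strand: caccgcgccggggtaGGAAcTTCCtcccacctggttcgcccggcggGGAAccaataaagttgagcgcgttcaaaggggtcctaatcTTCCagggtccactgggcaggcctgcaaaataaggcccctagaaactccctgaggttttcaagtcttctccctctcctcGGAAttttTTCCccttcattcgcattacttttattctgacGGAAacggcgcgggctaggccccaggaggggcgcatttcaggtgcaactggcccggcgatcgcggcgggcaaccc
KIFC3, chr16:57847174-57847293, minus strand: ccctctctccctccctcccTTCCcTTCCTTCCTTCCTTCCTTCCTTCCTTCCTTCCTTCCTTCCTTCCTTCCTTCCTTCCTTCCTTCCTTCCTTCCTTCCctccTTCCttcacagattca
NCKAP5, chr2:133526151-133526270, minus strand: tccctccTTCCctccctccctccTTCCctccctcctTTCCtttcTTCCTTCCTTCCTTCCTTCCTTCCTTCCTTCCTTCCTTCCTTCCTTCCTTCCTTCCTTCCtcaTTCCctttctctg
FEZF1, chr7:122303445-122303564, minus strand: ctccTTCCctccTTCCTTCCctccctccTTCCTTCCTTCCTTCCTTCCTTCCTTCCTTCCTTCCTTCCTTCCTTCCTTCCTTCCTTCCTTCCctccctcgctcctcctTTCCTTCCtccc

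The PPIL1 stretch held 8 cores, of which 2, near its downstream end, had the longer ETS letters CCGGAAG. These 2 lay 94 and 135 bp downstream of the FLI1 summit, which is at base 150 of the stretch. The SH3BP5L stretch held 3 cores and no CCGGAAG, and NVL 7 cores and none. The KIFC3 run counted 19 units in a row, NCKAP5 15 and FEZF1 16.

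The 10 members with the highest mean FLI1 rank were PPIL1, SH3BP5L, STK11IP, ZNF408, MRPL27, TSG101, GGA1, NIF3L1, SDF2 and SHC1. Being picked by mean rank over the 4 lists, they were high in each. Their fold is the deposited ratio of FLI1 signal to IgG. At PPIL1 the fold was 138.0 and 144.9 (set A, replicates 1 and 2), then 75.8 and 63.5 (set B, replicates 1 and 2). All 4 were above the 99th percentile of their lists, which the choice by mean rank brings with it. At STK11IP, whose protein binds the kinase LKB1, the FLI1 fold was 121.4, 125.6, 70.3 and 96.7 in the same order. At TSG101, a subunit of the ESCRT-I sorting complex, it was 86.6, 120.5, 85.4 and 66.6, and at MRPL27, a mitochondrial ribosomal protein, 137, 91.3, 86.3 and 64.3.

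H3K27ac at these same promoters was not uniformly strong. PPIL1 was at the 78.9th and 86.3rd percentile of the 2 H3K27ac lists, with folds of 5.84 and 6.20. SHC1, an adaptor of receptor tyrosine kinases, was at the 8.57th percentile of replicate 1 and the 92.1st of replicate 2. STK11IP, ZNF408 and NIF3L1 had a region in replicate 2 alone, and ZNF408 was there at the 13.5th percentile. The H3K27ac lists were shorter and lower in fold than the FLI1 lists, with 10219 and 17366 regions and median folds of 4.97 and 4.84. Of the 2282 members, 1018 met H3K27ac in both replicates, 420 in replicate 1 alone and 844 in replicate 2 alone.

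The 10 members with the highest H3K27ac rank were SNX8, NVL, HOXC9, DDX6, GLMN, MRPL13, TMEM258, UROS, HSPA8 and TGS1. At SNX8, a sorting nexin that shares its promoter with EIF3B, the H3K27ac fold was 9.38 and 11.9, and at NVL it was 11.2 and 9.62. The FLI1 rank of this group was wide. At DDX6, an RNA helicase of mRNA decay, the FLI1 fold was 5.46, 5.78, 5.29 and 8.59 in set A replicates 1 and 2 and set B replicates 1 and 2, a mean percentile of 33.5. At TMEM258, which shares its promoter with the flap endonuclease FEN1, it was 44.8, 59.5, 65.6 and 26, a mean percentile of 98.1. HSPA8, the constitutive HSP70 chaperone, had FLI1 folds of 12.1, 15.9, 19.7 and 27.6.

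Over all members, FLI1 and H3K27ac ranks showed almost no relation. Spearman's rho across members between FLI1 of set B, whose IgG the H3K27ac lists do not use, and H3K27ac ran from -0.041 to 0.001 over the 4 pairs of libraries (1438 or 1862 members). The 2 H3K27ac libraries themselves ranked the 1018 members they share with a rho of 0.205, so their ranks hold limited information. FLI1 ranks gave a rho of 0.81 between the replicates of set A, 0.65 between those of set B and 0.50 to 0.54 between sets (2282 members). The members are points of the same libraries and not replicates, so no p is given.

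Members ranked somewhat higher in FLI1 than bound promoters without the mark. In set A, the median percentile of fold was 78.0 for members and 72.0 for the others (replicate 1), and 79.4 and 74.1 (replicate 2). In set B it was 83.4 and 81.7, and 77.7 and 74.9. The difference was above 0 in 4 of 4 libraries, with a mean of 3.96 ± 2.06 percentile points (SD, n = 4; exact two-sided sign-flip permutation p = 0.13, from 2 of 16 sign patterns and the smallest that 4 libraries allow). As deposited folds, the medians were 11.5 and 9.85, 11.2 and 9.69, 15.2 and 14.5, and 12.4 and 11.6. The distributions overlapped over almost their whole range. The share of members above the 90th percentile was 26.5%, 28.4%, 35.2% and 27.1%, against 18.5%, 19.1%, 30.3% and 23% of promoters without H3K27ac. In all, 291 members (12.8%) were above the 90th percentile in all 4 lists.

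This difference depended on how H3K27ac was assigned. Members' FLI1 regions were also wider, with medians of 883.5, 820.5, 826.5 and 792 bp against 656, 634, 771 and 739 bp, a mean difference of 131 ± 89.8 bp (SD, n = 4; exact sign-flip permutation p = 0.13). A wide region meets another by 1 bp more easily. When an H3K27ac region within 250 bp of the FLI1 summit was required instead, whatever the width, the difference in FLI1 percentile was -0.42 and that in width 15.4 bp. With the FLI1 lists of set B alone choosing the regions, whose IgG the H3K27ac lists do not share, it was 9.23 percentile points. The part of region width in the FLI1 difference was not separated further.

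**Figure D1:**
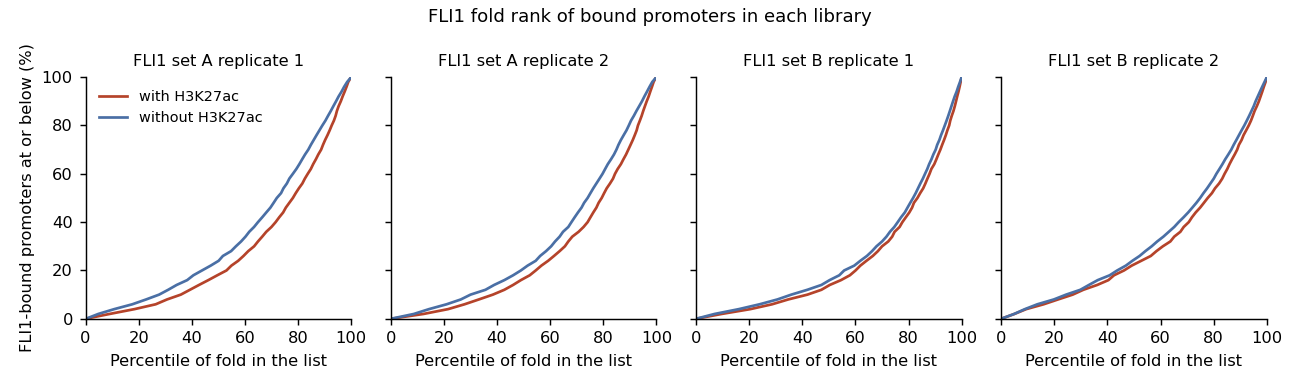
Cumulative share of FLI1-bound promoters (y axis, percent) at or below each percentile of deposited FLI1 fold (x axis) in the 4 FLI1 libraries, with H3K27ac (2282 regions) and without (4373). The curve with H3K27ac lies to the right in each panel, by more in set A (medians 78.0 against 72.0 and 79.4 against 74.1) than in set B (83.4 against 81.7 and 77.7 against 74.9).

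The sets ranked some members differently. EEF1G, a translation elongation factor subunit, had FLI1 folds of 3.58 and 3.95 in the set A replicates but 18.1 and 12.8 in those of set B, a mean percentile of 3.38 against 83.8. ROMO1 and PICALM, a clathrin assembly protein, were next, from 12.1 to 89.0 and from 5.06 to 80.2. ACTG1, cytoplasmic gamma-actin, went the other way, with folds of 19 and 15 in the set A replicates but 3.92 and 5.41 in those of set B, mean percentiles of 88.7 and 8.63. DLX5, a homeobox factor, and LMNB1, lamin B1, went from 83.5 to 3.43 and from 86.6 to 8.97. These 6 members were picked as the extremes of the difference between sets, so the replicates of each set had to lie on the same side. The values are a description.

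Within the promoter, the FLI1 summit of set A replicate 1 lay at a median of 142 bp from the nearest start in members and 179 bp in promoters without H3K27ac, and within 250 bp in 76.0% and 65.7%. Members' summits were upstream in 44.3%, against 54.7%. Few lay just upstream of the start: 7.93% were between 100 and 0 bp upstream, 14.8% between 200 and 100 bp upstream, and 26.9% between 0 and 100 bp downstream. Promoters without H3K27ac had the same dip, with 6.95%, 13.3% and 21.3% in these stretches. The place depended on the gene's strand. Of members at plus-strand genes 38.5% had the summit 0 to 100 bp downstream, against 14.7% at minus-strand genes, where 22.7% were 100 to 200 bp downstream. Promoters without H3K27ac showed the same strand difference, with 31.7% and 10.6%. Summits of the 4 libraries at a member spanned a median of 146 bp, and at 982 members (43.0%) they fell within 100 bp.

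Members were more often at paired genes. Protein-coding starts on both strands lay within 1 kb of the summit in 21.3% of members (485) and 12.6% of promoters without H3K27ac (549) in set A replicate 1. With the summits of the other FLI1 libraries the shares were 21.4% to 21.5% and 12.5% to 12.7%. The mean difference was 8.81 ± 0.14 points (SD, n = 4, being the same regions with 4 summit calls; exact sign-flip permutation p = 0.13). SNX8 with EIF3B, TMEM258 with FEN1, NIF3L1 with PPIL3 and EWSR1 with RHBDD3 are such pairs. Requiring an H3K27ac region within 250 bp of the summit gave a difference of 6.39 points.

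The ETS letters CCGGAAG, searched on both strands in 300 bp windows around the summit, were more common in members. They occurred in 20.6%, 21.3%, 26.2% and 26.5% of members in set A replicates 1 and 2 and set B replicates 1 and 2, and in 16.4%, 17.2%, 20.4% and 20.1% of promoters without H3K27ac. The difference was positive in 4 of 4 libraries, with a mean of 5.11 ± 1.12 points (SD over 4 libraries). The exact two-sided sign-flip permutation p was 0.13 (Benjamini-Hochberg adjusted p = 0.179 over 10 motifs). The libraries give the same regions with 4 summit calls, so the 4 values are not independent. Windows of the same length at all protein-coding starts, 1 start a gene, held CCGGAAG in 13.4%. The GGAA core alone was in 97.6% of members' windows, 96.5% of the others and 93.1% of all starts, so it tells little apart at this length.

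Of the other promoter motifs searched on both strands, AAGATGGC, read by YY1, was in 4.74% of members and 3.01% of promoters without H3K27ac, and in 4.32% of all starts. GGGCGG (SP and KLF factors) was lower in members, with 59.2% against 66.0%, as were CCAAT (NF-Y), with 29.0% against 33.2%, and TGACGTCA (CRE), with 1.25% against 1.77%. Each of these differences had the same sign in 4 of 4 libraries, again the same regions with 4 summit calls (exact sign-flip permutation p = 0.13, adjusted p = 0.179). GCATGCGC (NRF1) was in 3.68% and 3.66%, and TGANTCA (AP-1) in 4.09% and 4.24%. CCGGAAGT contains CCGGAAG, which contains GGAA, so these are not separate counts. Members' windows were slightly lower in GC, with a median of 62.0% against 63.7% in both libraries of set A and 64.3% against 66.3% in set B. The part of GC in the share of GGGCGG was not tested. The observed to expected ratio of CpG was 0.764 and 0.761 in set A replicate 1 and 0.809 and 0.803 in set B replicate 1, a difference whose sign turned under other settings.

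**Figure D2:**
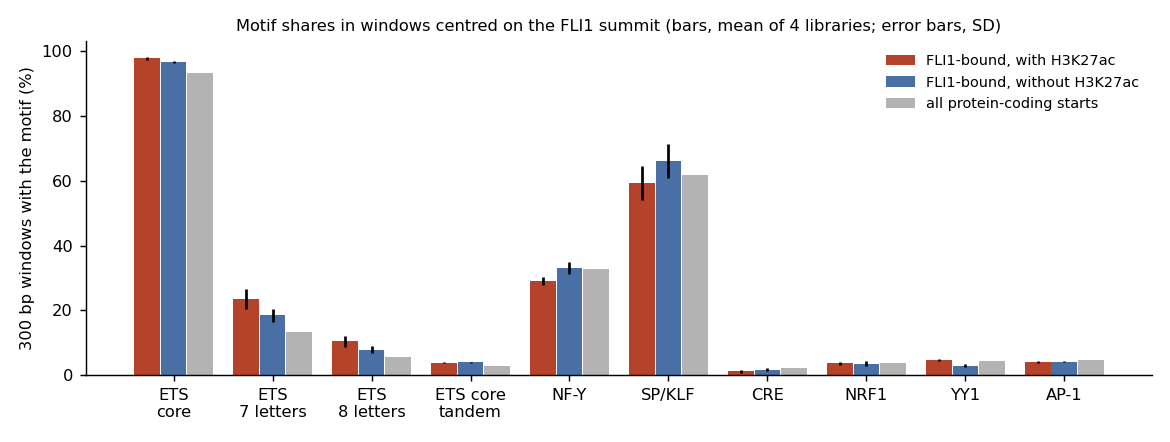
Share of 300 bp windows (y axis, percent) that hold each motif, for FLI1-bound promoters with and without H3K27ac (mean of the 4 FLI1 libraries, error bars SD) and for all protein-coding starts (no error bar). The ETS motif of 7 letters stands at 23.6% with H3K27ac, 18.5% without and 13.4% at all starts.

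CCGGAAG was rarely beneath the summit. In the central 100 bp, CCGGAAG was in 3.63% of members, 3.52% of promoters without H3K27ac and 8.28% of all starts, so the order of bound promoters and all starts turned around between the windows. At this width members were above the comparison group in set B replicate 2 and below it in the other 3 libraries. The GGAA core alone did not turn around. In the central 100 bp it was in 70.7% of members, 68.4% of promoters without H3K27ac and 63.6% of all starts. Sites within 25 bp of the summit were fewer than sites 75 to 200 bp away, at a ratio of densities of 0.185, 0.200, 0.191 and 0.296 in the 4 libraries for members, and 0.264, 0.270, 0.380 and 0.348 without H3K27ac. Other motifs were also thinner at the summits of both groups. In members their ratios were 0.51 to 0.65 for CCAAT, 0.53 to 0.70 for GGGCGG, 0.24 to 0.53 for AAGATGGC and 0.065 to 0.28 for GCATGCGC, the last from 2 to 8 central sites a library. Without H3K27ac the ratios were 0.61 to 0.65, 0.61 to 0.73, 0.32 to 0.83 and 0.40 to 0.60 in the same order. The PPIL1 stretch above, with its CCGGAAG letters 94 and 135 bp from the summit, is of this kind.

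The distance of sites from the summit was uneven on the axis of the genome. To the left, at lower coordinates, their median distance was 115 to 144 bp over the 4 libraries and both gene strands, and to the right 148 to 183 bp. Genes of both strands showed the shorter distance on the left. The number of sites depended on the gene as well: at plus-strand genes 395 lay to the left and 229 to the right in set A replicate 1, against 280 and 288 at minus-strand genes, and in set B replicate 1 the counts were 467 and 210 against 338 and 265. Relative to the start instead, 1218 CCGGAAG sites lay within 300 bp of members' starts at a median of 43 bp upstream, and 56.1% of them fell between 100 bp upstream and 50 bp downstream, which is 25% of that window. The 100 bp upstream of the start, which held few summits, are part of that stretch. This count was made for members only and is not shown to be particular to them. All protein-coding starts held CCGGAAG in 8.28% of their central 100 bp and 13.4% of 300 bp windows. What sets the summits off from the motifs was not tested.

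**Figure D3:**
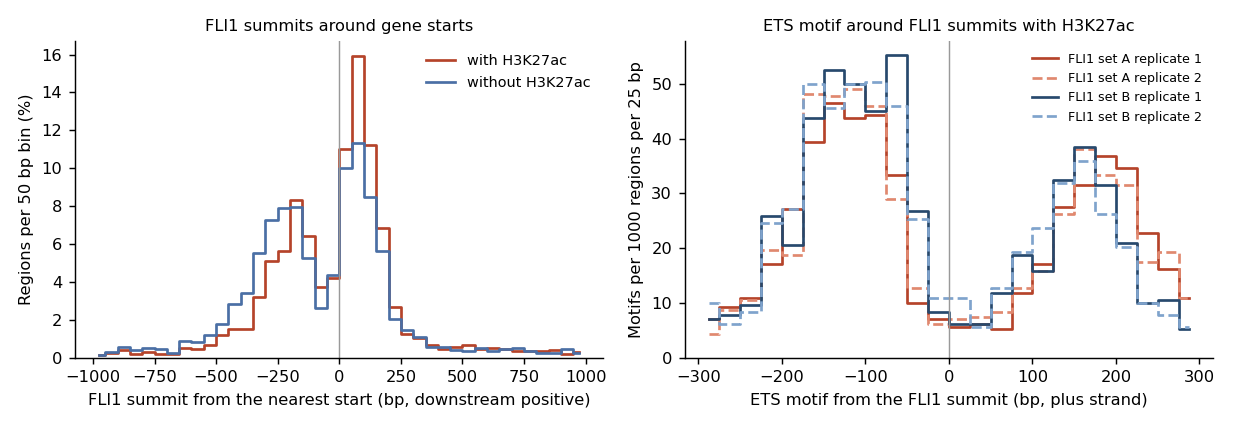
Left, FLI1 summits of set A replicate 1 around the nearest protein-coding start (x axis, bp; y axis, percent of regions per 50 bp) with and without H3K27ac. Right, CCGGAAG sites around the summits of members in the 4 libraries (x axis, bp on the plus strand; y axis, sites per 1000 regions per 25 bp), with a trough at the summit in each library and the nearer shoulder on the left.

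GGAA repeats were rare here. Runs of at least 4 units within 250 bp of the summit of set A replicate 1 occurred in 5 members (0.219%) and 13 promoters without H3K27ac (0.297%), and the mean difference over the libraries was -0.023 ± 0.081 points (SD over 4 libraries; exact two-sided permutation p = 0.625). The 5 were KIFC3, NCKAP5, FEZF1, DAO and FCGRT. FLI1 fold at KIFC3 was 144.4, 114.6, 47.2 and 30.8, and at NCKAP5 171.1, 159.1, 32.1 and 36.5, the first of which was the highest among members in set A replicate 1. Their regions were 11748 and 8596 bp wide, and FEZF1's 7823 bp, against the members' median of 883.5 bp. FEZF1 had lower FLI1 folds of 22.9, 32.9, 19.4 and 16.3. DAO, D-amino acid oxidase, and FCGRT, the neonatal Fc receptor, had 14.7 and 9.14 in set A replicate 1 and 25.5 and 24.5 in set B replicate 1. The H3K27ac met by the wide regions was distant from the FLI1 summit, 1629 and 451 bp at KIFC3, -2241 and 1905 bp at NCKAP5 (the first upstream) and 3421 bp at FEZF1.

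In general H3K27ac lay either on the FLI1 summit or beside it. Measured along the gene, the nearest H3K27ac summit was at a median of 35 bp downstream of the FLI1 summit in replicate 1 (1438 members) and 30.5 bp in replicate 2 (1862), with median distances of 259 and 236.5 bp regardless of side. It was within 50 bp in 22% and 24.5% and at least 150 bp away in 59.8% and 57.4%. Of all members met, 35.6% and 33.7% had it at least 150 bp downstream and 24.2% and 23.6% at least 150 bp upstream. H3K27ac summits flanked FLI1 on both sides in 14.4% and 16.9%. The near summits also differed by strand. In replicate 1, 13.9% of members at plus-strand genes had the H3K27ac summit up to 50 bp downstream and 7.15% up to 50 bp upstream, whereas at minus-strand genes the shares were 9.18% and 13.6%. On the axis of the genome, the near H3K27ac summits thus lay more often at the higher coordinate for both strands, and replicate 2 showed the same order (15% and 9.44%, then 11% and 13.3%).

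The share of near summits was lower from the FLI1 summits of set B, 17.1% to 18.2% within 50 bp, than from those of set A, 21.9% to 24.5%. H3K27ac shares its IgG libraries with FLI1 of set A and not with set B, and the part of this in the near summits was not tested. The H3K27ac regions over members ranked higher in fold than those at starts with no FLI1 region. Their median percentile of fold was 58.8 (1407 regions) against 49.4 (987) in replicate 1 and 61.7 (1943) against 48.5 (1561) in replicate 2. The folds behind these ranks were 5.16 against 4.95 and 5.18 against 4.84, and the widths 489 against 389 bp and 426 against 371 bp. The rule asks for an overlap of H3K27ac with FLI1, which a wide H3K27ac region meets more easily. The contrast is thus not independent of the rule, and the part of width in it was not tested. With 2 libraries no test was made.

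**Figure D4:**
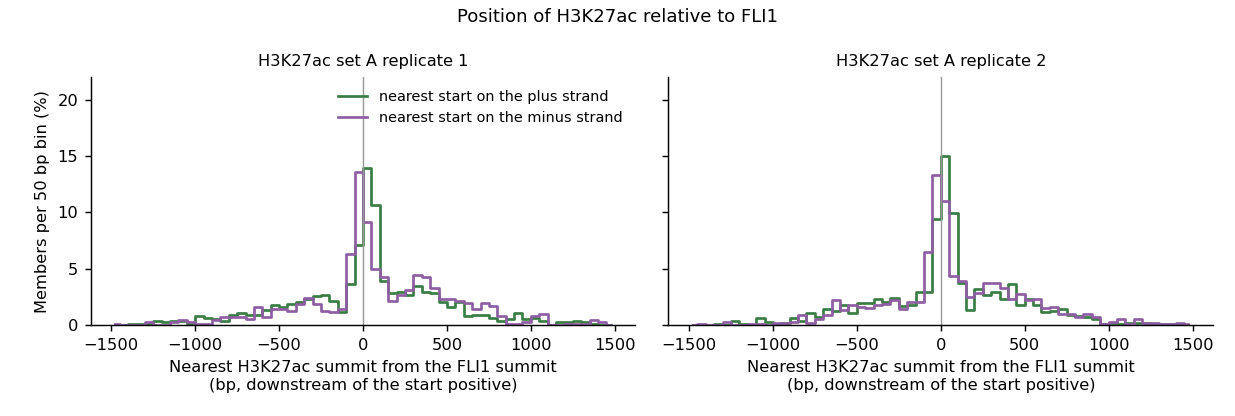
Position of the nearest H3K27ac summit relative to the FLI1 summit of set A replicate 1 (x axis, bp, downstream of the start positive; y axis, percent of members per 50 bp), for genes on the plus and minus strand in the 2 H3K27ac libraries. A narrow peak near 0 stands on broad shoulders, and the higher shoulder is downstream.

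The repressive marks were not found on members. None of 2282 overlapped a region in any of the 2 H3K27me3 and 2 H3K9me3 lists, which allows a share of up to 0.131%, counting error only. Of the 4373 bound promoters without H3K27ac, 17 and 12 (0.389% and 0.274%) met H3K27me3 and 26 and 5 (0.595% and 0.114%) met H3K9me3. Over all 35210 FLI1 regions the counts were 179 and 124 (0.508% and 0.352%) for H3K27me3 and 695 and 453 (1.97% and 1.29%) for H3K9me3. Both kinds of bound promoter were therefore nearly free of these marks, and overlap was also low over all FLI1 regions. The marks' lists covered 31.4 to 59.7 Mb.

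Among genes, 2678 of 19626 protein-coding genes (13.6%) had a member at a start, and 4297 (21.9%) had only bound promoters without H3K27ac. Of the 6975 genes with a bound promoter, 38.4% thus had a member. These shares are the background for the lists that follow, which were compiled with earlier results of these data known and are described by counts. A gene can be counted through its neighbour's promoter.

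Genes of RNA splicing and of protein production and removal were above both the 13.6% of all genes and the 38.4% of bound genes. Of 48 spliceosome core genes 29 had a member and 11 were bound without H3K27ac, so 72.5% of the bound genes were acetylated. Among them were SNRPB and SNRPE, Sm proteins of the snRNPs, with FLI1 folds of 55.5, 84.3, 63.9 and 46.4 and of 117.6, 104.1, 57.6 and 28.1, and SF3B1, the branch-site factor. Proteasome subunits had 18 of 39, with the core subunit PSMB1 (46.2, 47.5, 37.6 and 27.1) and the ATPases PSMC5 and PSMC2. Aminoacyl-tRNA synthetases, which charge tRNAs, had 9 of 20, chaperonin CCT 4 of 8, and translation initiation factors 16 of 46. Cytosolic ribosomal proteins had 31 of 86 and mitochondrial ribosomal proteins 27 of 78. RPS14 led the cytosolic genes with FLI1 folds of 40.7, 50.6, 53.8 and 40.7, and it held CCGGAAG. Several examples share a promoter with a second gene, as TCP1 does with MRPL18.

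Genes of respiration, DNA repair and the cell cycle also exceeded the 13.6% of all genes. Respiratory complex I had 11 of 37, with NDUFA13 at FLI1 folds of 42.6, 22.3, 53.9 and 33.0, and ATP synthase 6 of 19, with ATP5PF, which shares its start region with the ETS factor gene GABPA. DNA repair had 15 of 40, among them PALB2 (42.6, 40.2, 40.4 and 17.6), ATM and PARP1, and 15 more were bound without H3K27ac. DNA replication had 11 of 43 with ORC1 and FEN1, and 18 more were bound without H3K27ac, so its acetylated share of bound genes, 37.9%, was near the 38.4% of all bound genes. The mitotic list had 8 of 30, including the kinase AURKA and its activator TPX2, and the anaphase-promoting complex 6 of 14. RNA polymerase II and general factors had 11 of 46 and Mediator 7 of 32. Among bound genes these were 39.3% and 38.9%, and the mitotic list 42.1%, near the 38.4% as well. The BAF remodelling complex had 5 of 22, with 12 bound without the mark, which is 29.4% of its bound genes.

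Histone genes had 8 of 85, below the 13.6% of all genes, H2AZ2, a variant histone, included. Of 39 HOX genes, HOXB6, HOXB8, HOXB13, HOXC6, HOXC9 and HOXD8 had a member. These 6 are 15.4% of the list, near the 13.6% of all genes, and 46.2% of the 13 with a bound promoter. Of 44 collagen genes none had a member, and 3 were bound without H3K27ac. Of 14 genes known to be repressed by the fusion none had a member, and 2, FOXO3 and TNC, were bound without H3K27ac. With so few bound genes on either list, the lack of members tells little about acetylation. Of 28 genes known to be activated by it 5 (17.9%) had a member: STEAP1, ID2, FCGRT, AURKA and JAK1. Another 9 were bound without H3K27ac. The acetylated share of the bound genes on this list, 35.7%, was near the 38.4% of all bound genes. STEAP1, a surface antigen of Ewing sarcoma, had FLI1 folds of 43.7, 27.2, 24.8 and 16.7. The promoters of EWSR1, which drives the fusion, and TAF15 were members. At EWSR1 the FLI1 folds were 25, 27.7, 6.32 and 11.6 and the H3K27ac folds 6.0 and 6.87.

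ZNF genes had 65 of 476, close to the 13.6% of all genes, while 177 were bound without H3K27ac. Their acetylated share among bound genes was 26.9%, below the 38.4%, and it differed by chromosome. On chromosome 19, 16 of 118 bound ZNF genes had a member (13.6%), a lower share than the 109 of 506 other bound genes there (21.5%). On the other chromosomes the shares were 39.5% (49 of 124) and 40.2% (2502 of 6225), which are near equal.

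The share of bound promoters with H3K27ac differed widely between chromosomes. It ran from 11.4% on chromosome 13 (9 of 79) to 50.7% on chromosome 1 (381 of 752), with a median of 35.2% over 23 chromosomes. Chromosome 5 followed at 46.5%, and chromosomes 4, 19, 14 and 3 were low, at 16.1%, 16.7%, 18.7% and 19.3%. The 2 H3K27ac replicates, taken apart, ordered the chromosomes alike, with 37.4% and 42.0% on chromosome 1 and 6.33% and 8.86% on chromosome 13 (Spearman's rho 0.865 over 23 chromosomes, a description). The median FLI1 percentile of bound promoters was 73.7 in set A replicate 1 and 81.7 in set B replicate 1 on chromosome 1, 73.6 and 79.9 on chromosome 13, and 79.1 and 88.7 on chromosome 19. Chromosome 1 was not uniform: in its first 20 Mb, a limit chosen after the values were seen, 28.9% (26 of 90) met H3K27ac, against 53.6% (355 of 662) in the rest. With a −log10 q of at least 5 the shares were 25.6% on chromosome 1 and 4.69% on chromosome 13, and with H3K27ac in both replicates 36.8% and 4.11%. At starts with no FLI1 region, H3K27ac was found at 0.658% (2 of 304, chromosome 8) to 5.00% (6 of 120, chromosome 21). The order of chromosomes by this share had a rho of 0.229 with that by bound promoters. So few acetylated starts make the order imprecise, so the rho does not tell whether the 2 patterns differ. The IgG tracks were not analysed here, and what moves with these differences was not tested. The differences given above between members and promoters without H3K27ac were not smaller when taken within chromosomes: 4.76 percentile points of FLI1 fold, 131 bp of width, 5.97 points of CCGGAAG and 9.46 points of paired starts.

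The members just inside and outside the limits of the rule were few. There were 10 members that had a summit over 950 and up to 1000 bp from a start, and 9 shared acetylated regions lay over 1000 and up to 1050 bp away. H3K27ac overlapped 60 members by 1 to 50 bp, with a median overlap of 322 bp over all members, and 35 promoters counted as without H3K27ac had such a region within 50 bp of their edge.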

How the data were processed

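The deposited files are 10 region lists, 1 for each antibody library. Per the submitters' processing notes, cutadapt 4.4, Bowtie2, Picard 2.17.11 and MACS2 2.1.1 were used with GRCh38 (hg38). Region names in the deposited files show that the authors removed duplicates and called each library separately, with the like-numbered IgG of its own set as control. The deposited fold is the authors' ratio of signal to control at the summit, and the deposited −log10 p-value and −log10 q-value are those of the same caller. The lists give no read totals, so depth and its limit on precision are unknown, and values were compared as percentiles within a list. H3K27ac regions listed with several summits were merged, keeping all summits.

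The computations used Python 3.11.15 with numpy 2.4.6, pandas 2.3.3, scipy 1.17.1 and pysam 0.24.0, transcript starts of GENCODE release 44 and the hg38 sequence. Overlap meant 1 shared bp. Differences between promoter groups were computed in each FLI1 library and tested with an exact two-sided sign-flip permutation over 4 libraries, which can give no p under 0.13 (2 of 16 sign patterns). The p-values then measure only the spread between these libraries, which may be technical. For motifs, repeats, CpG and paired starts the libraries differ only in where they place the summit of the same regions. Overlap, distance and motif searches were tested on simulated data. Members and lists were chosen with earlier results of these data known. Genes were named by fixed rules: the 10 highest in FLI1 and in H3K27ac rank, up to 3 for each gene list by FLI1 rank, the 3 largest shifts between sets in each direction, members under a repressive mark, and up to 5 with GGAA runs. A member is named by its nearest start, and SF3B1, ATM, PARP1, HOXB6, HOXD8 and JAK1 were added as examples of their lists. Regions on Y were left out, and the results of 2 gene lists are not reported here in full. Alternatives are given in the closing section.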

Additional observations from a re-analysis of the deposited data

Results flagged for a closer look

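For 2 motifs the difference between members and bound promoters without H3K27ac went one way in both FLI1 libraries of set A and the other way in both of set B, though the difference between sets was not tested. For GCATGCGC (NRF1) in 300 bp windows, set B minus set A was -0.419 points. For GGAAGGAA, a tandem of the ETS core, in 100 bp windows it was 0.702 points. Both motifs are rare in these windows, and 10 motifs were examined at 2 window lengths.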

How the results depend on the processing

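No paired analysis was possible because no test compares groups of samples, so replicate numbers pair nothing; the sign-flip test pairs the promoter groups within each library. The set B only, 1-strand and within-chromosome alternatives were chosen after seeing the data. With 4 libraries no exact p can pass 0.05. Width, paired starts and both repressive marks kept their direction under all alternatives run for them.

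The number of members was 1018 with H3K27ac in both replicates, 919 at a −log10 q of at least 5, 1231 with 50% reciprocal overlap of FLI1 regions, and 1438 to 2475 when leaving out a library, lowest without H3K27ac replicate 2. The FLI1 percentile difference turned to -0.422 with H3K27ac within 250 bp of the summit. The CpG ratio difference turned to -0.00356 with both H3K27ac replicates, -0.00321 at the stricter q, -0.00525 with set B only, -0.00196 in 100 bp windows, and ranged from -0.000615 to 0.00432 when leaving out a library. The GGAA repeat difference turned to 0.132 points with both replicates, 0.00701 with starts on 1 strand, 0.0163 within chromosomes, and ranged from -0.0705 to 0.0614 when leaving out a library. Neither of these differences has a stable direction. The H3K27me3 difference was -0.228 points at the stricter q, -0.157 with summits within 250 bp of a start, -0.159 with reciprocal overlap, -1.08 with set B only, and -0.462 to -0.274 when leaving out a library. The H3K27ac percentile difference was 15.4 with both replicates and 7.67 at the stricter q. The H3K27ac offset was 28 bp with both replicates, 27 with H3K27ac within 250 bp, 41.5 with summits within 250 bp of a start, 55 with set B only, 37.5 with starts on 1 strand, and 28 to 35 when leaving out a library. The cause was not tested. The CCGGAAG difference was 0.105 points in 100 bp windows, above 0 in 1 of 4 libraries, so its direction was not kept there. It was 1.17 for the GGAA core and 2.71 for CCGGAAGT.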
